A study of Homo sapiens with 18 samples.

Results

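The genes described here are 48 that build and finish collagen: 31 genes for collagen chains, with COL17A1 kept apart, and 17 genes for the hydroxylases, chaperones, cross-linking enzymes and propeptide enzymes that act on the chains. They were taken by symbol from a table of 58735 genes. Of the 48 genes, 46 had at least 1 read in some library and 2 (COL11A1 and COL15A1) had none. A filter on low counts left 39 of them in the tests, 24 chains and 15 processing genes.

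The libraries came from HaCaT, an immortal line of human skin keratinocytes, and TIGK, a line of human gingival keratinocytes immortalised with telomerase. Cultures were left unscratched (the 0 h baseline) or were scratched and harvested after 6 h or 24 h, which gave 6 groups of 3 libraries. The labels name no added allele or agent, and the groups used here include no unscratched culture at 24 h, so the scratch and longer culture cannot be told apart. Each tissue is represented by 1 line, so the tissue and the line cannot be told apart either. Nothing in the labels says that the 3 libraries of a group were separate cultures, so the p-values may reflect technical spread between libraries alone.

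Collagens are triple helices of 3 chains, and each type has its own set of partner chains. In the endoplasmic reticulum, prolyl and lysyl residues of the chains are hydroxylated, chaperones hold the helix together, and outside the cell the propeptides are cut off and lysyl oxidases start the cross-links. Keratinocytes are known mainly for collagens of the basement membrane zone, such as type IV in the sheet and type VII in the anchoring fibrils, while fibroblasts make most of the fibrillar types I and III. LOX, PLOD2 and P4HA1 are also textbook targets of hypoxia-inducible factor.

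Levels are given in CPM, the usual scaling of counts by library size, when 1 gene is followed across libraries, and in FPKM, which also divides by gene length, when genes are compared with each other. The 3 values of a group stand in the order of libraries A, B and C, and means carry the SD with n = 3. Calls were made with edgeR's quasi-likelihood test at an adjusted p under 0.05 over 17409 genes, and ± after a log2 fold change is its SE. In RNA from whole cultures, fewer cells that express a gene and less RNA per cell cannot be told apart.

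Depth ran from 14238090 to 25011331 reads assigned to genes per library. TIGK libraries 0 h C and 6 h C stood apart, with 25161 to 26246 genes that had a read against 21164 to 22799 in the other 16, and 4.98% to 5.08% of reads from mitochondrial genes against 5.84% to 8.08%. Of 10 keratinocyte markers none was at 0 in any group, and their summed level was 40667 to 51529 CPM. Of 14 fibroblast markers, 4 or 5 were at 0 in each HaCaT group and 3 or 4 in each TIGK group. Their sum was 98.8 to 123.6 CPM across the HaCaT libraries, 239 to 333 CPM in TIGK at 0 h and 6 h, and 454 to 508 CPM in TIGK at 24 h, with PRRX1 and DPT at 0 in all TIGK groups. The 6 markers of smooth muscle and pericytes summed to 10.2 to 21.7 CPM in HaCaT and 53.1 to 139 CPM in TIGK. CSPG4 alone held most of the TIGK sum, with 1451, 1413 and 2096 reads at 0 h against 144, 127 and 134 in HaCaT. Each of the others on that list had at most 108 reads in any library. Those of endothelium and those of immune cells each summed to 8.22 CPM or less, and those of melanocytes to 3.67 to 27.8 CPM. The sum of the fibroblast markers thus moved with the line and, in TIGK, with time. FBLN1 held most of it in HaCaT, and DCN, FBLN1 and TWIST1 in TIGK. DCN had 1852, 1903 and 2052 reads in TIGK at 0 h and 3397, 3244 and 3758 at 24 h. TWIST2 went the other way, from 485, 618 and 577 reads to 275, 240 and 247. PDGFRA, THY1, POSTN, PRRX1, DPT, OGN and ASPN had at most 14 reads in any library. The part of these markers in the collagen differences was not tested. Because no source used here gives the counting settings or says whether strand was kept, reads from overlapping genes cannot be told apart. Of the 48 genes, 10 are overlapped by another gene with over 1000 reads. They are COL4A1 and COL4A2 (each other), COL9A3 (TCFL5), COL18A1 (SLC19A1), P4HA2 (PDLIM4), P4HA3 (PPME1), PLOD3 (ZNHIT1), LOX (SRFBP1), LOXL1 (LOXL1-AS1) and LOXL2 (ENTPD4). ENTPD4 lies on the same strand as LOXL2, where strand would not separate the reads.

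Per gene length, SERPINH1 (the collagen chaperone HSP47) led in every group, at 81.99 ± 1.85 FPKM in HaCaT and 107 ± 6.13 FPKM in TIGK at 0 h. COL7A1, the anchoring fibril chain, came second in HaCaT with 57.5 ± 2.94 FPKM at 0 h. COL1A1 of the fibrillar type I stood at 2.67 ± 0.253 FPKM in HaCaT and 15.2 ± 0.695 FPKM in TIGK at 0 h, where COL4A1 of the basement membrane had 5.25 ± 0.229 and 14.96 ± 0.818 FPKM. In TIGK the second place at 0 h belonged to FKBP10, a chaperone and prolyl isomerase of the procollagen pathway, with 58.8 ± 0.793 FPKM. Summed over the 31 chains, the unscratched cultures reached 275.6 ± 4.20 FPKM in TIGK and 181.8 ± 3.58 FPKM in HaCaT. The 17 processing genes summed to 365.4 ± 29.3 FPKM in TIGK and 210.2 ± 4.56 FPKM in HaCaT. By 24 h the sum of the processing genes stood at 298.3 ± 5.23 FPKM in TIGK and 228.9 ± 3.23 FPKM in HaCaT, and that of the chains at 287.5 ± 29.1 and 190.8 ± 8.23 FPKM.

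**Figure D1:**
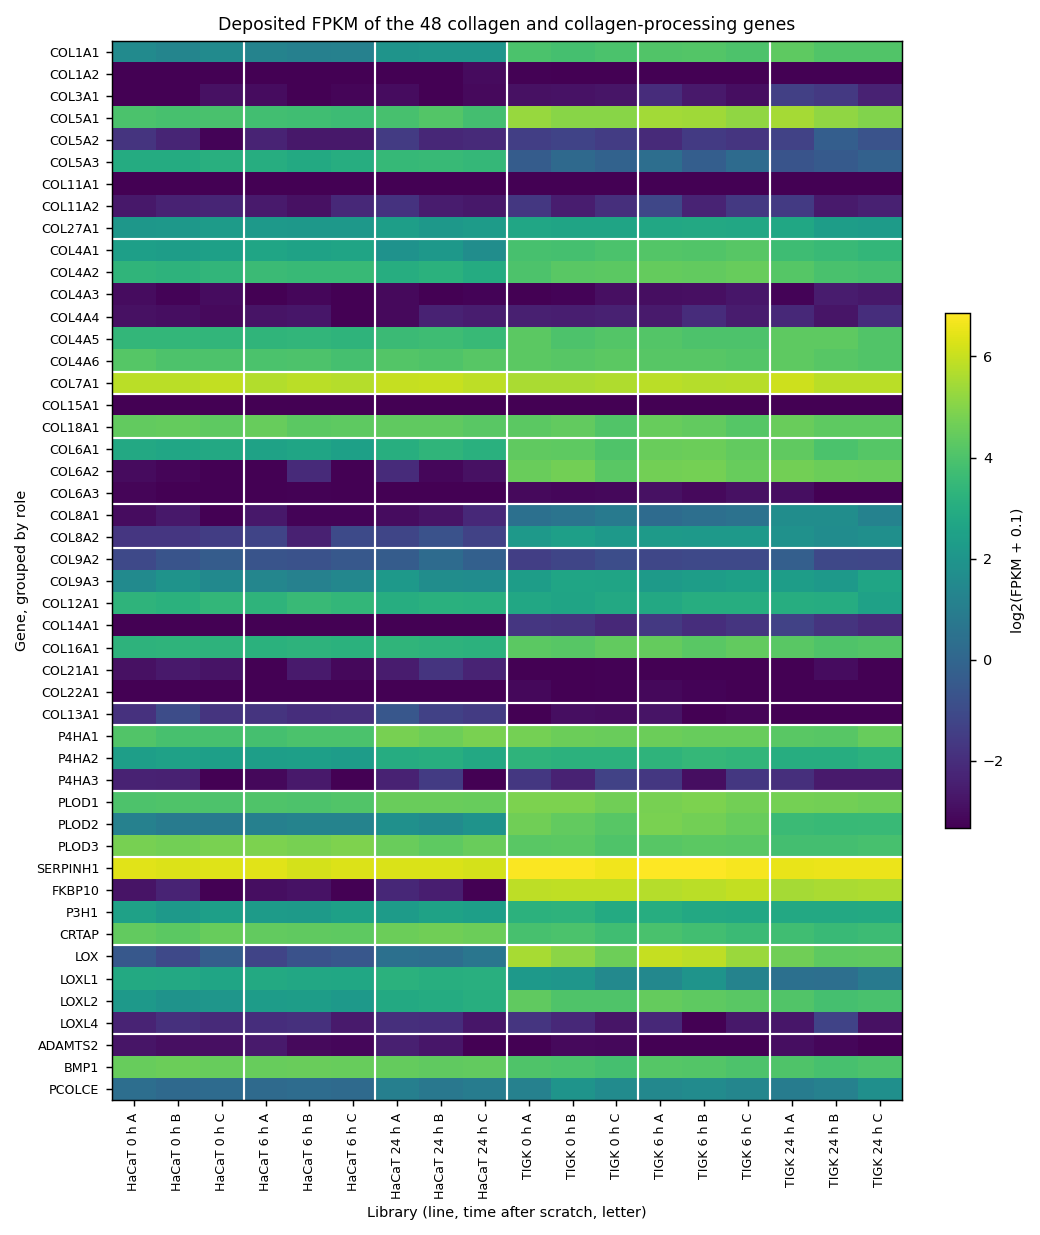
Level of each of the 48 genes (rows, grouped by role) in each of the 18 libraries (columns), as log2(FPKM + 0.1), with darker or brighter colour as the scale bar shows. SERPINH1 and COL7A1 are high in all libraries, while FKBP10, COL6A2 and LOX are high in the 9 TIGK libraries and low in the 9 HaCaT libraries.

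The first question was how the lines differed at each time. In unscratched cultures 33 of the 39 tested genes were called, 8 higher and 25 lower in HaCaT, against a background of 62.6% of all genes tested, 29.3% higher and 33.3% lower. At least 1 log2 unit separated the lines for 17 of the 39 (background 30.8%). The median log2 ratio of HaCaT to TIGK was -0.87 over the 39 genes and -0.04 over all genes tested. At 6 h after the scratch 35 of 39 were called, 7 higher and 28 lower, with a background of 62.6% (29.8% higher and 32.8% lower), and the medians were -1.07 and -0.02. By 24 h the count was 30 of 39, 8 higher and 22 lower, with a background of 61.7% (28.6% higher and 33.1% lower), and the medians were -0.44 and -0.05. Without TIGK libraries 0 h C and 6 h C the counts were 32, 32 and 30.

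**Figure D2:**
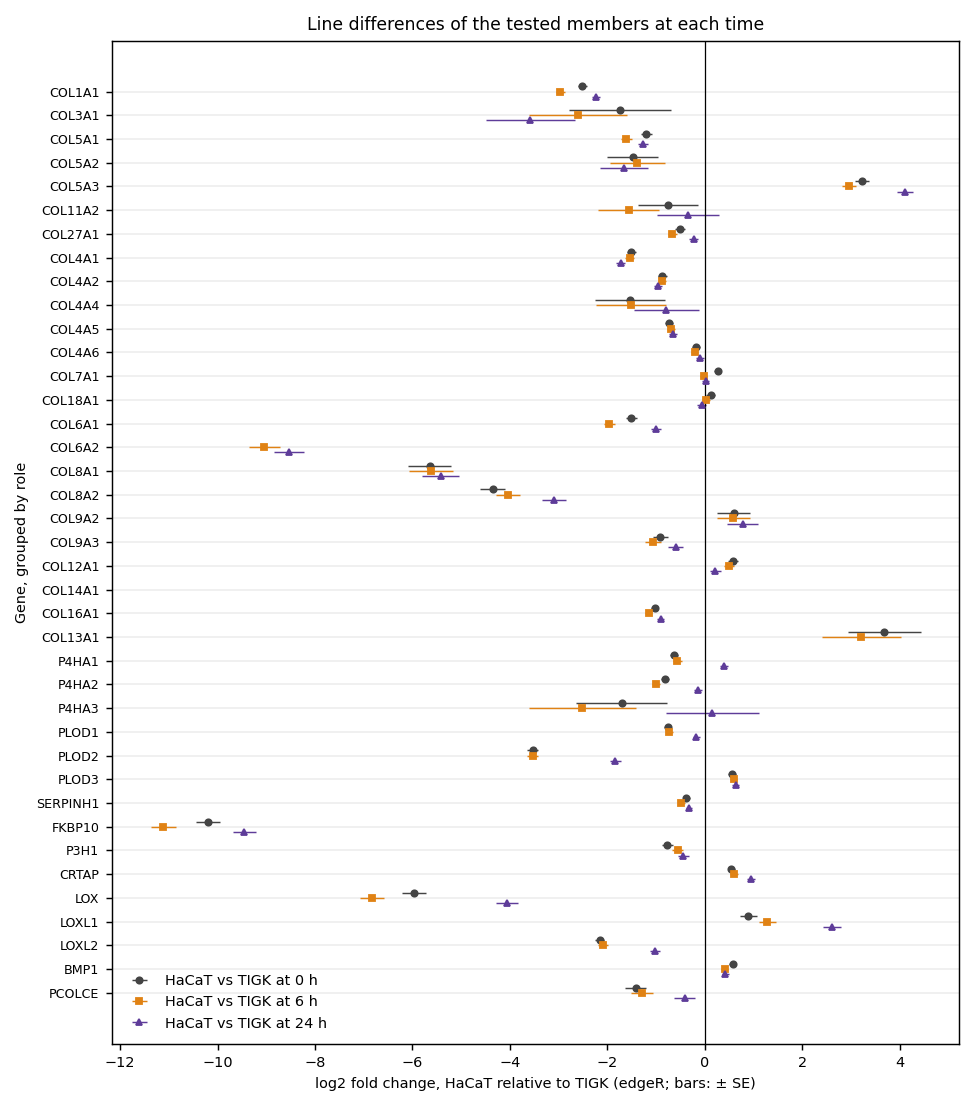
Log2 ratio of HaCaT to TIGK (x axis, with SE) for the 39 tested genes (y axis) at 0 h, 6 h and 24 h, leaving out points where either group had 3 reads or fewer. FKBP10, COL6A2, LOX and COL8A1 lie farthest to the lower side, and COL5A3 and COL13A1 farthest to the higher side.

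Among the fibrillar chains, COL1A1 and COL5A1 RNA was lower in HaCaT at every time, COL3A1 RNA at 6 h and 24 h, and COL5A3 RNA was higher. COL1A1 (chr 17, 50183289 to 50201632, hg38) codes for the pro-alpha1 chain of type I collagen. In HaCaT, COL1A1 stood at 28.1, 23.8 and 28.01 CPM at 0 h, 22.6, 20.7 and 21.3 at 6 h, and 36.6, 38.7 and 39.4 at 24 h. In TIGK it stood at 156, 144 and 155 CPM at 0 h, 167, 175 and 162 at 6 h, and 198, 171 and 171 at 24 h. Every HaCaT library was below every TIGK library at each time, and the fitted gap was 5.70-fold at 0 h (-2.51 ± 0.09 log2, adjusted p = 6.5e-18) and 4.71-fold at 24 h (-2.24 ± 0.08). COL1A2, its partner in the usual type I heterotrimer, was almost without reads. TIGK had 1 COL1A2 read, in 0 h library A, beside 9143 COL1A1 reads in the 3 libraries at 0 h. HaCaT had 4 COL1A2 reads, in 24 h library C, beside 1747 COL1A1 reads at 24 h. With 0 reads in the 3 libraries, a group allows up to 3 reads of COL1A2, counting error only. COL1A2 was therefore near or below what this depth detects in both lines, at every time.

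COL3A1, the single chain of type III collagen, had few reads. TIGK libraries had 4, 5 and 9 reads at 0 h, 15, 7 and 4 at 6 h and 29, 24 and 10 at 24 h. HaCaT libraries had 0, 0 and 4 reads, 3, 0 and 1 reads and 3, 0 and 2 reads at the same times. The groups overlapped at 0 h (adjusted p = 0.15), and HaCaT was called lower at 6 h and 24 h (-3.58 ± 0.91 log2 at 24 h). The call at 6 h was lost in 3 of 12 alternative settings (adjusted p = 0.0815 to 0.165).

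Type V collagen, which co-assembles with type I in thin fibrils, showed opposite differences in its chains. In HaCaT, COL5A1 stood at 179.5, 170.1 and 171 CPM at 0 h, 157, 152 and 144 at 6 h, and 165, 199 and 156 at 24 h. TIGK libraries held 438, 382 and 375 CPM at 0 h, 498, 476 and 405 at 6 h, and 499.5, 408 and 345 at 24 h, each above all HaCaT libraries of the same time. The difference at 0 h was 2.29-fold (-1.2 ± 0.11 log2, adjusted p = 9.3e-10). COL5A3 (chr 19, 9959561 to 10010471), an alternative chain of type V, ran the other way. In HaCaT, COL5A3 reached 52.03, 52.7 and 58.2 CPM at 0 h, 54.6, 48.8 and 55.4 at 6 h, and 75.7, 77.6 and 74.7 at 24 h. TIGK had 4.61, 6.98 and 5.71 CPM at 0 h, 8.05, 4.95 and 7.32 at 6 h, and 3.54, 4.31 and 5.40 at 24 h. HaCaT was 9.39-fold higher at 0 h (3.23 ± 0.15 log2, adjusted p = 2.1e-15) and 17.2-fold higher at 24 h (4.11 ± 0.16, adjusted p = 6.8e-17), with no overlap at any time. COL5A2, the usual partner of COL5A1, had 36 reads in the HaCaT libraries at 0 h beside 8293 of COL5A1, and 126 in TIGK beside 23652. COL5A2 was called lower in HaCaT at each time. The calls at 0 h and 6 h were lost in 1 and 6 of 13 alternative settings. COL27A1, a fibrillar chain of cartilage, was called lower in HaCaT at each time (log2 ratios -0.51, -0.66 and -0.23), though the 24 h call was lost in 8 of 13 alternative settings (adjusted p = 0.0551 to 0.447). COL11A2, another minor fibrillar chain, had its highest group mean in TIGK at 6 h, 0.226 ± 0.126 FPKM. It was called lower in HaCaT at 6 h only, a call lost in 5 of 13 alternative settings.

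Basement membrane type IV RNA was lower in HaCaT for the common pair of chains, COL4A1 and COL4A2, and for COL4A5 of the epithelial pair. The lines were closer for COL4A6. COL4A1 and COL4A2 lie head to head on chromosome 13, with starts 127 bases apart in RefSeq GRCh38.p14, and are read in opposite directions from 1 shared stretch. COL4A5 and COL4A6 lie the same way on chromosome X with starts 380 bases apart, and COL4A3 and COL4A4 on chromosome 2 with starts 419 bases apart. The stretch between the RefSeq starts of COL4A1 and COL4A2 holds the letters CCAAT, the box bound by the factor NF-Y, once. It is shown on both strands (chr13:110307167-110307195) because the same 29 bases precede both RefSeq starts, with capitals on CCAAT or its reverse complement. These bases lie inside the deposited spans of both genes, 110148963 to 110307233 for COL4A1 and 110305812 to 110513209 for COL4A2.
COL4A1 site, minus strand: cagcgccaacaaATTGGggagctcggccc
COL4A2 site, plus strand: gggccgagctccCCAATttgttggcgctg
CCAAT was searched on both strands of the 250 bases before each start and was found for 9 of the 35 genes here that have a promoter entry, against 33.0% of 27305 promoters. A match of letters is a description and shows no binding.

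In HaCaT, COL4A1 stood at 78.1, 75.9 and 82.3 CPM at 0 h, 92.8, 86.04 and 91.4 at 6 h, and 52.5, 61.4 and 46.1 at 24 h. TIGK libraries held 221, 214 and 238 CPM at 0 h, 258, 255 and 273 at 6 h, and 191, 179 and 158 at 24 h, above all HaCaT libraries at each time. The fold at 0 h was 2.85 lower in HaCaT (-1.51 ± 0.09 log2, adjusted p = 2.4e-13). COL4A2 in HaCaT stood at 198, 186 and 202 CPM at 0 h, 241, 227 and 230.2 at 6 h, and 155, 173 and 148 at 24 h. Its TIGK levels were 315, 376 and 378 CPM at 0 h, 424, 414 and 441 at 6 h, and 347, 297 and 285 at 24 h. HaCaT was 1.82-fold lower for COL4A2 at 0 h (-0.87 ± 0.08 log2, adjusted p = 2.4e-09), with no overlap; whether this differs from COL4A1 was not tested. The ratio of COL4A1 to COL4A2 in FPKM was 0.528 ± 0.0100 in HaCaT and 0.828 ± 0.0861 in TIGK at 0 h, and 0.438 ± 0.0299 and 0.746 ± 0.0382 at 24 h. COL4A5 was lower in HaCaT at the 3 times (log2 ratios -0.74, -0.69 and -0.65). COL4A6 had log2 ratios of -0.18 at 0 h and -0.10 at 24 h; it was called at 0 h and 6 h only, and these calls were lost in 7 and 4 of 13 alternative settings (adjusted p = 0.075 to 0.14 and 0.061 to 0.0954). COL4A6 was the leading type IV chain per length in HaCaT, at 16.8 ± 1.10 FPKM, while in TIGK it stood at 19.01 ± 0.648 FPKM beside 18.2 ± 1.80 for COL4A2. COL4A4 had its highest group mean in TIGK at 24 h, 0.109 ± 0.0527 FPKM, and COL4A3 had at most 9 reads in any library.

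For COL7A1 and COL18A1, other chains of the basement membrane zone, RNA levels were close in the lines. COL7A1 in HaCaT held 626, 633 and 685 CPM at 0 h, 583, 629 and 599.7 at 6 h, and 691, 711 and 639 at 24 h. The TIGK libraries had 529, 533 and 560.0 CPM at 0 h, 623, 598 and 616 at 6 h, and 758, 621 and 634 at 24 h. HaCaT was higher by 0.26 ± 0.07 log2 at 0 h (adjusted p = 0.0037), with no overlap. At 6 h and 24 h the libraries overlapped and no difference was called (-0.02 ± 0.07 log2, adjusted p = 0.83, and 0.02 ± 0.07, adjusted p = 0.82). COL18A1, whose C-terminal fragment is endostatin, was not called at any time (0.12 ± 0.09, 0.03 ± 0.09 and -0.06 ± 0.09 log2). Its group means lay between 19.3 ± 1.99 and 21.04 ± 1.81 FPKM in TIGK and between 20.3 ± 1.10 and 20.9 ± 0.922 FPKM in HaCaT.

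The type VI chains separated the lines sharply for 1 chain. Type VI collagen forms beaded microfibrils from an alpha1, an alpha2 and 1 further chain. COL6A1 in HaCaT stood at 37.9, 34.7 and 37.9 CPM at 0 h, 31.6, 33.6 and 29.9 at 6 h, and 43.7, 54.3 and 46.6 at 24 h. In TIGK it reached 113, 111 and 90.4 CPM at 0 h, 126, 129.5 and 113 at 6 h, and 109.9, 84.8 and 96.1 at 24 h, above every HaCaT library of the same time. The fold was 2.84 lower in HaCaT at 0 h (-1.51 ± 0.11 log2, adjusted p = 6.8e-12) and 2.01 lower at 24 h (-1.01 ± 0.10). COL6A2 (chr 21, 46098097 to 46132849), its neighbour on the chromosome, was at 127, 142 and 104 CPM at 0 h, 138, 143 and 122 at 6 h, and 141, 130.5 and 127 at 24 h in TIGK. HaCaT libraries had 2, 1 and 0 COL6A2 reads at 0 h, 0, 12 and 0 at 6 h and 12, 1 and 3 at 24 h. At 0 h that is 3 reads against 7265, a TIGK-to-HaCaT ratio of 1927 scaled to library size, with a 95% interval of 659 to 9348 that covers counting error only. At 24 h HaCaT was 372-fold lower (-8.54 ± 0.31 log2, adjusted p = 2.1e-17). HaCaT thus held COL6A1 RNA with almost no COL6A2 RNA, while in TIGK the FPKM ratio of COL6A1 to COL6A2 was 0.855 at 0 h, 0.924 at 6 h and 0.735 at 24 h. COL6A3, the usual further chain, had 3 reads in HaCaT and 20 in TIGK at 0 h, beside 1760 and 6150 of COL6A1.

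**Figure D3:**
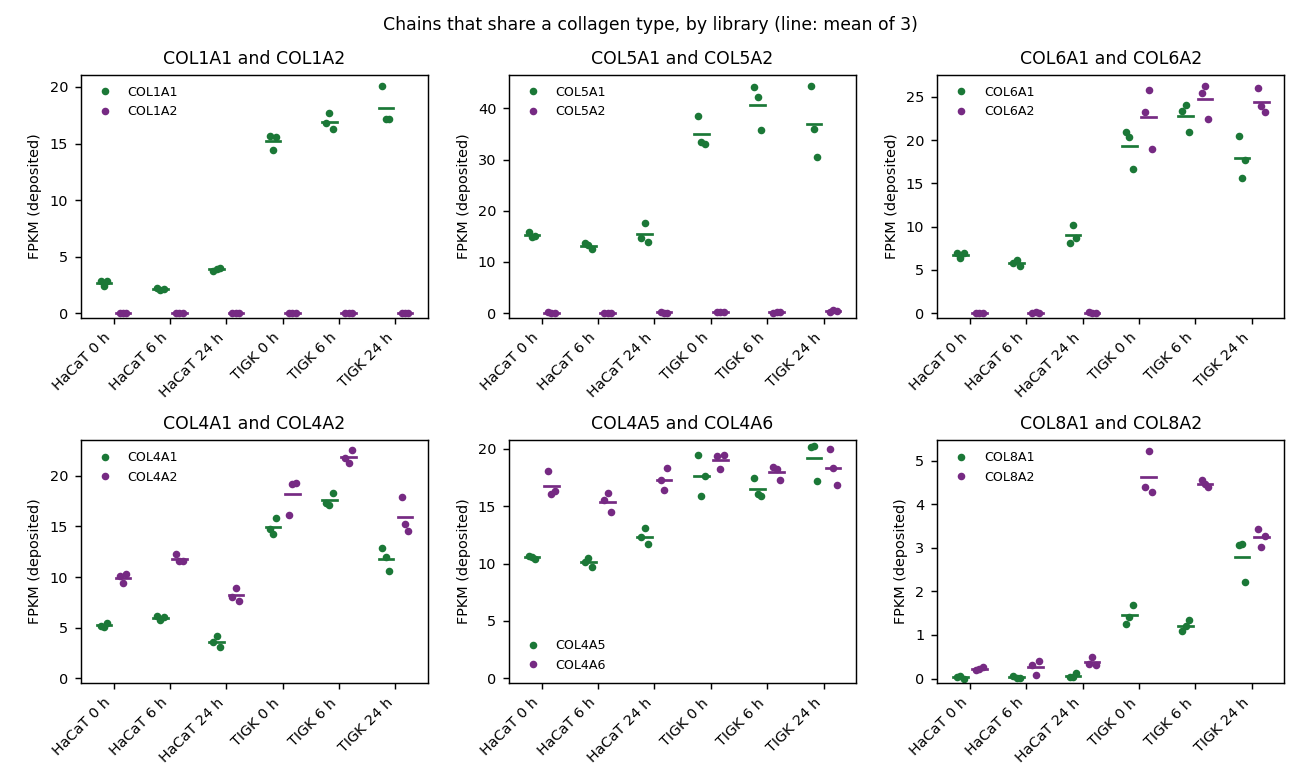
FPKM in each library (points; the line is the mean of 3) for 6 pairs of partner chains, by line and time. COL1A1 and COL5A1 have reads where COL1A2 and COL5A2 have almost none, and COL6A2 is near 0 in HaCaT where COL6A1 is not.

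The short-chain type VIII collagens were low overall and lower still in HaCaT. COL8A1 in TIGK stood at 11.98, 13.4 and 16.2 CPM at 0 h, 10.4, 11.4 and 12.7 at 6 h, and 28.9, 29.5 and 21.1 at 24 h. HaCaT libraries had 4, 9 and 0 COL8A1 reads at 0 h, 9, 1 and 1 at 6 h and 4, 6 and 18 at 24 h. HaCaT was 49.9-fold lower at 0 h (-5.64 ± 0.44 log2, adjusted p = 5.3e-11), without overlap. COL8A2 in TIGK held 20.8, 24.8 and 20.3 CPM at 0 h, 21.4, 21.1 and 20.8 at 6 h, and 16.2, 14.2 and 15.5 at 24 h. In HaCaT, COL8A2 stood at 0.961, 0.991 and 1.25 CPM at 0 h, 1.52, 0.428 and 1.89 at 6 h, and 1.59, 2.32 and 1.44 at 24 h. The gap was 20.4-fold at 0 h (-4.35 ± 0.26 log2), 16.4-fold at 6 h and 8.58-fold at 24 h (-3.10 ± 0.24), with HaCaT lower and no overlap at any time.

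Of the fibril-associated chains, COL9A3 and COL16A1 were lower in HaCaT and COL12A1 was higher before 24 h. COL9A3 in HaCaT held 14.1, 18.02 and 13.5 CPM at 0 h, 12.1, 10.3 and 12.6 at 6 h, and 21.2, 15.1 and 14.4 at 24 h. In TIGK it held 24.7, 31.04 and 29.9 CPM at 0 h, 22.2, 24.5 and 26.6 at 6 h, and 24.5, 22.1 and 30.4 at 24 h, above all HaCaT libraries of the same time. The log2 ratio was -0.91 ± 0.15 at 0 h, -1.07 ± 0.16 at 6 h and -0.60 ± 0.16 at 24 h, each called. COL9A3 is overlapped by TCFL5, which had 21154 reads over the 18 libraries beside 6171 of COL9A3, so a share of TCFL5 reads cannot be told apart. COL16A1, a chain found near basement membranes, stood at 89.1, 93.5 and 89.3 CPM at 0 h, 85.3, 88.98 and 86.3 at 6 h, and 93.1, 87.6 and 85.1 at 24 h in HaCaT. TIGK libraries had 184, 173 and 198 CPM at 0 h, 205, 177 and 198 at 6 h, and 178, 155 and 164 at 24 h, about 1 log2 unit higher with no overlap (HaCaT to TIGK -1.03 ± 0.08, -1.15 ± 0.08 and -0.90 ± 0.08 log2). COL12A1 was higher in HaCaT by 0.59 log2 at 0 h and 0.49 at 6 h, and at 24 h its 0.22 log2 missed the threshold (adjusted p = 0.079). COL9A2 was called higher in HaCaT at 24 h only (0.78 log2, adjusted p = 0.041), a call lost in 6 of 13 alternative settings (adjusted p = 0.0539 to 0.18). COL14A1 had no read in any HaCaT library, so HaCaT was at least 8.06-fold lower at 0 h, 8.87-fold at 6 h and 9.28-fold at 24 h, with 3 reads per library set as the floor. COL13A1, a transmembrane collagen, had no read in TIGK at 24 h and was at least 11-fold higher in HaCaT there; at 0 h its log2 ratio was 3.69 ± 0.75. COL21A1, with at most 20 reads in any library, and COL22A1, with at most 2, were not tested.

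The enzymes that hydroxylate the chains were mostly lower in HaCaT at 0 h, and the gap was smaller at 24 h. P4HA1 and P4HA2 are the catalytic alpha subunits of prolyl 4-hydroxylase, which stabilises the helix. P4HA1 (chr 10, 73007217 to 73096974) stood at 53.2, 47.1 and 47.1 CPM at 0 h, 45.98, 49.9 and 49.2 at 6 h, and 84.8, 74.9 and 85.7 at 24 h in HaCaT. TIGK had 82.9, 73.9 and 71.6 CPM at 0 h, 74.4, 69.98 and 70.6 at 6 h, and 58.9, 58.3 and 69.5 at 24 h. HaCaT was below TIGK without overlap at 0 h (-0.63 ± 0.09 log2, adjusted p = 1.1e-06) and 6 h (-0.57 ± 0.09), and above it without overlap at 24 h (0.39 ± 0.09, adjusted p = 0.00042). P4HA2 in HaCaT was at 44.5, 47.98 and 45.5 CPM at 0 h, 44.3, 45.4 and 42.9 at 6 h, and 66.02, 70.2 and 60.2 at 24 h. TIGK held 83.6, 79.7 and 80.7 CPM at 0 h, 84.2, 93.7 and 88.7 at 6 h, and 69.2, 69.03 and 77.96 at 24 h. The P4HA2 ratio of HaCaT to TIGK was -0.82 ± 0.08 log2 at 0 h and -1.01 ± 0.08 at 6 h, both called with no overlap, and -0.14 ± 0.08 at 24 h (adjusted p = 0.13), where libraries overlapped. PDLIM4, which overlaps P4HA2, had 52239 reads over the 18 libraries beside 19846 of P4HA2, and a share of them cannot be told apart. P4HA3, the other alpha subunit, had its highest group mean in TIGK at 0 h, 0.203 ± 0.0994 FPKM, and is overlapped by PPME1. It was called lower in HaCaT at 6 h only, a call lost in 6 of 12 alternative settings.

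PLOD2, the lysyl hydroxylase of the telopeptides, differed most within its family. In HaCaT, PLOD2 stood at 16.5, 13.7 and 13.3 CPM at 0 h, 16.2, 17.3 and 17.5 at 6 h, and 25.99, 22.6 and 28.1 at 24 h. TIGK libraries held 195, 166 and 144 CPM at 0 h, 213, 199.9 and 176 at 6 h, and 93.3, 89.02 and 91.1 at 24 h. The distance was 11.6-fold at 0 h (-3.53 ± 0.12 log2, adjusted p = 3.6e-18) and 3.57-fold at 24 h (-1.83 ± 0.11), with HaCaT lower and no overlap. PLOD1, which acts on the helix, was lower in HaCaT at 0 h (log2 ratio -0.76) and at 24 h (-0.18), the latter call lost in 7 of 13 alternative settings (adjusted p = 0.0614 to 0.195). PLOD3, which also adds sugar to hydroxylysine, was higher in HaCaT at each time (0.56, 0.59 and 0.63 log2).

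The chaperones FKBP10 and SERPINH1 were lower in HaCaT, and the genes of the prolyl 3-hydroxylase complex differed in opposite directions. FKBP10 (chr 17, 41812680 to 41823217), also called FKBP65, was at 252, 255 and 259 CPM at 0 h, 231, 240.0 and 263 at 6 h, and 195, 206 and 213 at 24 h in TIGK. HaCaT libraries had 3, 7 and 0 FKBP10 reads at 0 h, 2, 3 and 0 at 6 h and 8, 5 and 0 at 24 h. The fitted log2 ratio was -10.20 ± 0.24 at 0 h (adjusted p = 1.2e-20), -11.11 ± 0.26 at 6 h and -9.45 ± 0.24 at 24 h; with so few reads in HaCaT its size depends on the prior count. SERPINH1 was lower in HaCaT at each time (log2 ratios -0.38, -0.48 and -0.32). P3H1 and CRTAP form the prolyl 3-hydroxylase complex with cyclophilin B. P3H1 was lower in HaCaT (-0.77 log2 at 0 h), and CRTAP was higher (0.55 at 0 h and 0.94 at 24 h), so the FPKM ratio of P3H1 to CRTAP was 0.240 in HaCaT and 0.596 in TIGK at 0 h.

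Lysyl oxidases, which oxidise lysine outside the cell to start cross-links, split by member. LOX (chr 5, 122063195 to 122078360) in TIGK stood at 262, 190.3 and 139 CPM at 0 h, 352, 326 and 224 at 6 h, and 138, 112 and 116 at 24 h. HaCaT libraries held 3.33, 2.10 and 3.99 CPM at 0 h, 1.84, 2.75 and 3.29 at 6 h, and 6.93, 6.62 and 8.42 at 24 h. HaCaT was 62.6-fold lower at 0 h (-5.97 ± 0.24 log2, adjusted p = 2.3e-16), 114-fold lower at 6 h and 16.7-fold lower at 24 h (-4.06 ± 0.22, adjusted p = 4.4e-14), with no overlap. LOXL2, a lysyl oxidase that also acts on type IV collagen, was lower in HaCaT too. LOXL2 in HaCaT was at 25.1, 21.4 and 23.1 CPM at 0 h, 28.1, 28.6 and 26.1 at 6 h, and 41.05, 43.4 and 47.04 at 24 h. TIGK held 119, 95.9 and 96.1 CPM at 0 h, 126, 116 and 109.9 at 6 h, and 96.5, 82.5 and 87.5 at 24 h. The gap was 4.46-fold at 0 h (-2.16 ± 0.10 log2) and 2.03-fold at 24 h (-1.02 ± 0.10), with no HaCaT library reaching the TIGK range. ENTPD4, which overlaps the LOXL2 gene, had 13752 reads over the 18 libraries beside 20357 of LOXL2, and a share of them cannot be told apart. LOXL1 (chr 15, 73925989 to 73952137), best known from elastic fibres, ran the other way. In HaCaT, LOXL1 stood at 26.6, 25.9 and 23.1 CPM at 0 h, 26.7, 25.2 and 24.96 at 6 h, and 32.8, 30.3 and 31.1 at 24 h. TIGK had 16.3, 14.8 and 9.83 CPM at 0 h, 9.45, 13.8 and 8.30 at 6 h, and 4.65, 4.44 and 6.36 at 24 h, below every HaCaT library of the same time. HaCaT was 1.86-fold higher at 0 h (0.90 ± 0.17 log2, adjusted p = 6.7e-05) and 6.10-fold higher at 24 h (2.61 ± 0.19, adjusted p = 1.4e-11). Summed over the 4 lysyl oxidases of the set, TIGK held 56.7 ± 14.1 FPKM and HaCaT 11.5 ± 0.626 FPKM at 0 h, and 38.7 ± 3.76 and 17.7 ± 0.557 FPKM at 24 h. LOXL4 had at most 18 reads in any library.

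The propeptide genes tested differed in opposite directions. BMP1, the C-proteinase, was higher in HaCaT at each time (0.58, 0.41 and 0.42 log2). PCOLCE, which enhances BMP1, was lower in HaCaT at 0 h and 6 h (-1.42 ± 0.22 and -1.29 ± 0.22 log2) and was not called at 24 h (-0.41 ± 0.21, adjusted p = 0.097). ADAMTS2, the N-proteinase, had at most 12 reads in any library.

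**Figure D4:**
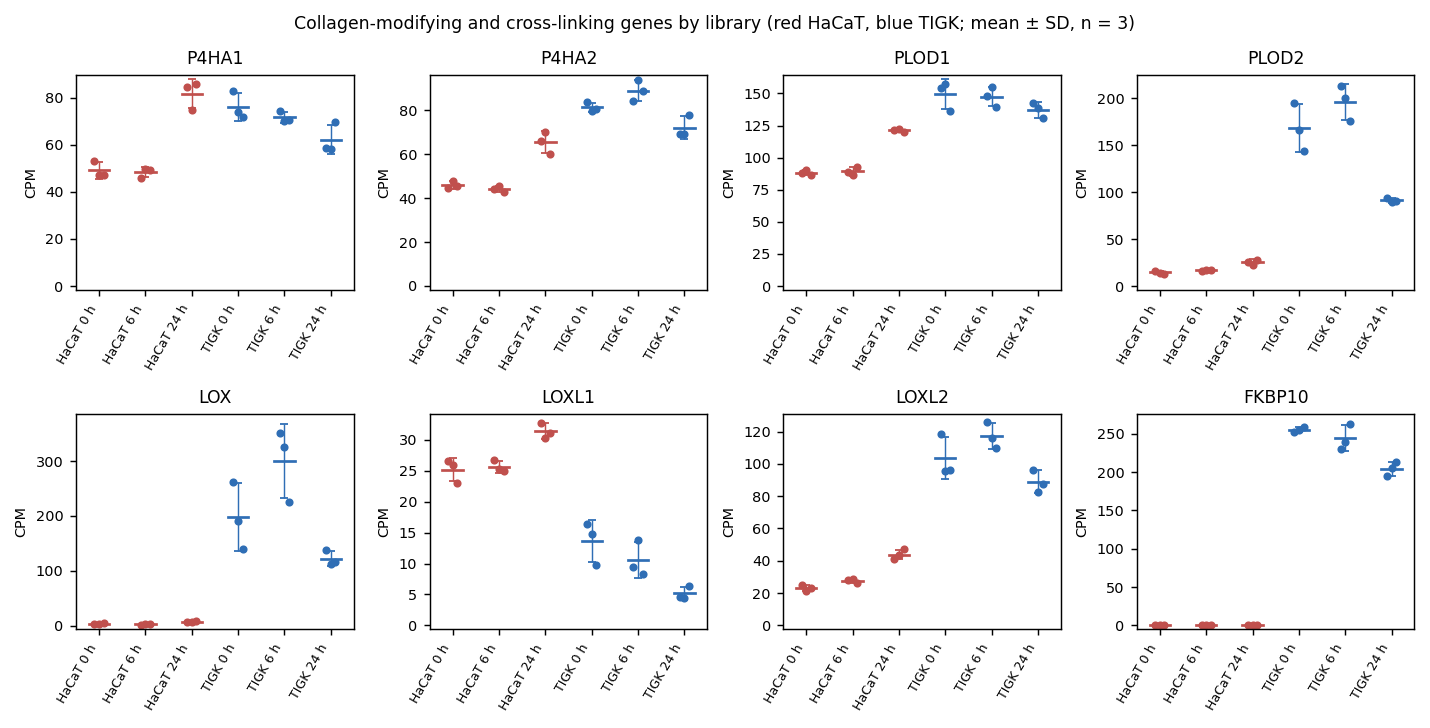
CPM of 8 processing genes in each library, with the mean ± SD of 3, by line (HaCaT red, TIGK blue) and time. P4HA1, PLOD2, LOX and LOXL2 stand higher at 24 h than at 0 h in HaCaT, while P4HA1, PLOD2, LOX and LOXL1 stand lower at 24 h than at 0 h in TIGK.

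The next question was what changed after the scratch within each line. These comparisons share the 0 h libraries with each other and with the line comparison at 0 h. At 6 h almost nothing was called. In HaCaT 0 of the 39 tested genes passed at 6 h against 0 h, with a background of 0.201%; 5 had an unadjusted p under 0.05 (COL1A1, COL4A1, COL4A2, COL9A3 and LOXL2), and DESeq2 called 0. In a fit of those 2 groups alone edgeR called 1 gene, COL4A2. In TIGK 1 of 39 passed, with a background of 3.62% (2.5% higher). That gene was LOX, which rose 1.53-fold (0.61 ± 0.17 log2, adjusted p = 0.045), though the libraries of 0 h and 6 h overlapped. LOX was higher at 6 h within each letter, 352 against 262 CPM in A, 326 against 190.3 in B and 224 against 139 in C. TIGK libraries of the same letter deviated together between these times. With the letter as a replicate block in edgeR, LOX was again the 1 gene called (adjusted p = 0.000369). That pairing was taken from these same data and not from the labels, so the blocked fit is no independent support for the LOX call. The LOX call was lost in 7 of 13 alternative settings (adjusted p = 0.138 to 0.255), among them those without TIGK 0 h B, 0 h C, 6 h A or 6 h B.

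At 24 h HaCaT raised P4HA1, P4HA2, PLOD1, PLOD2, LOX and LOXL2, which modify and cross-link collagen, and lowered the COL4A1 and COL4A2 pair. Of 39 tested genes 13 were called against 0 h, 10 higher and 3 lower, with a background of 31.4%, 15.5% higher and 15.9% lower. The 13 genes make 33.3% of the 39, close to the background in number. The median log2 change was 0.35 over the 39 genes and 0.00 over all genes tested. Of the 15 processing genes 7 rose and 1 fell, and of the 24 chains 3 rose and 2 fell. Against 6 h the count was 17, 13 higher and 4 lower, with a background of 35.7% (17.6% higher and 18.1% lower).

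P4HA1 rose 1.67-fold in HaCaT (0.74 ± 0.09 log2, adjusted p = 5.6e-07). P4HA2 rose by 0.51 ± 0.08 log2 (adjusted p = 2.3e-05). PLOD1 rose by 0.46 ± 0.07 (adjusted p = 2.1e-05), from 88.4 ± 1.84 to 121 ± 0.847 CPM. These 3 hydroxylase genes shared a pattern in which each 24 h library lay above each 0 h library. PLOD2 rose by 0.82 ± 0.12 log2 (adjusted p = 7.1e-06), while PLOD3 fell (-0.32 ± 0.08 log2, adjusted p = 0.0017). LOX rose 2.33-fold from its low level (1.22 ± 0.29 log2, adjusted p = 0.0021). LOXL2 rose 1.89-fold (0.92 ± 0.10 log2, adjusted p = 1.2e-07). The other lysyl oxidase tested did not pass: LOXL1 changed by 0.32 ± 0.17 log2 (adjusted p = 0.15) although its 24 h libraries lay above those of 0 h. PCOLCE rose by 0.70 ± 0.22 log2, a call lost in 3 of 13 alternative settings (adjusted p = 0.055 to 0.0785).

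Among chains in HaCaT, COL1A1 rose by 0.52 ± 0.09 log2 (adjusted p = 4.4e-05), COL5A3 by 0.49 ± 0.13 (adjusted p = 0.004) and COL6A1 by 0.39 ± 0.11 (adjusted p = 0.0068). COL4A1 fell (-0.56 ± 0.09 log2, adjusted p = 3e-05), and COL4A2 fell too (-0.30 ± 0.08, adjusted p = 0.008). The COL4A2 call was lost without HaCaT 24 h C (adjusted p = 0.0531) and the COL6A1 call without HaCaT 24 h B (adjusted p = 0.0607). The 3 rising chains and both falling ones had 24 h libraries that did not overlap those of 0 h. COL7A1 was not called (0.07 ± 0.07 log2, adjusted p = 0.51).

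In TIGK at 24 h the processing genes called were all lower, and 3 of them (P4HA1, PLOD2 and LOX) were among those called higher in HaCaT. Of 39 tested genes 15 were called at 24 h against 0 h, 4 higher and 11 lower, with a background of 32.3%, 15.3% higher and 17% lower. The 15 genes make 38.5% of the 39. The median log2 change was -0.17 over the 39 genes and -0.01 over all genes tested. Of the 15 processing genes 9 fell and 0 rose; of the 24 chains 4 rose and 2 fell. Without the TIGK libraries 0 h C and 6 h C the count was 16; without 24 h B it was 8, and without 0 h B it was 9. Calls for 5 genes (COL4A1, COL7A1, PLOD2, PLOD3 and LOXL1) held in all alternatives run. Against 6 h the count was 16, 3 higher and 13 lower, with a background of 36.7% (17.8% higher and 18.9% lower).

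PLOD2 fell 1.84-fold in TIGK (-0.88 ± 0.10 log2, adjusted p = 2.9e-07). LOXL1 fell 2.63-fold (-1.40 ± 0.19 log2, adjusted p = 4.3e-06). LOX fell by 0.69 ± 0.17 log2 (adjusted p = 0.0032), a call that limma on log2(FPKM + 0.1) did not make (adjusted p = 0.058). All 3 genes had 24 h libraries below those of 0 h. PLOD3 fell (-0.39 ± 0.08 log2), as it did in HaCaT. P4HA1 fell by 0.29 ± 0.09 log2 (adjusted p = 0.013), a call lost in 4 of 13 alternative settings (adjusted p = 0.06 to 0.0786). Smaller falls in SERPINH1, FKBP10, P3H1 and CRTAP (-0.18, -0.32, -0.30 and -0.21 log2) had adjusted p values of 0.046, 0.042, 0.04 and 0.045, and each was lost in 6 or 7 of 13 alternative settings. LOXL2 and P4HA2 did not pass (-0.22 ± 0.09 log2, adjusted p = 0.072, and -0.17 ± 0.08, adjusted p = 0.093).

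Among chains in TIGK, COL7A1 rose by 0.31 ± 0.07 log2 (adjusted p = 0.0021) and COL4A1 fell (-0.35 ± 0.09, adjusted p = 0.003). COL8A1 rose 1.90-fold (0.93 ± 0.26 log2, adjusted p = 0.0083) while COL8A2 fell (-0.52 ± 0.19, adjusted p = 0.039). The COL8A1 call was lost in 1 of 13 alternative settings (adjusted p = 0.139) and that of COL8A2 in 6 (adjusted p = 0.057 to 0.171). The FPKM ratio of COL8A1 to COL8A2 in TIGK was 0.317 ± 0.0694 at 0 h and 0.865 ± 0.175 at 24 h. COL1A1 rose by 0.25 ± 0.08 log2 (adjusted p = 0.016), lost in 4 of 13 alternative settings (adjusted p = 0.0558 to 0.123). COL3A1 rose from its few reads (2.20 ± 0.77 log2, adjusted p = 0.031), lost in 7 of 13 (adjusted p = 0.0516 to 0.122). Of 7 tested fibroblast markers 4 rose and 1 fell in the same comparison, where 15.3% of all genes tested rose and 17% fell. The other listed fibroblast markers did not pass the filter on low counts. The part of these markers in the chain changes was not tested.

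The lines were then compared in their 24 h response itself, as the HaCaT change minus the TIGK change. In all 12 of 39 genes were called, 12 higher and 0 lower in HaCaT, with a background of 13.5%, 7.07% higher and 6.45% lower. At least 1 log2 unit separated the responses for 7 of them (background 4.45%). The median difference was 0.31 log2 over the 39 genes and -0.01 over all genes tested, 0.75 over the 15 processing genes and 0.15 over the 24 chains. Processing genes made 9 of the 12 calls. Without TIGK libraries 0 h C and 6 h C the count was again 12, and leaving out 1 library at a time it ranged from 8 to 13. For the difference in the 6 h response 0 genes were called, with a background of 0.752%; 5 had an unadjusted p under 0.05, and DESeq2 called 1, COL1A1.

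The 3 largest called differences were those of LOX, LOXL1 and PLOD2. For LOX the responses differed by 1.91 ± 0.34 log2 (adjusted p = 0.00032), a rise in HaCaT against a fall in TIGK. For LOXL1 they differed by 1.71 ± 0.25 (adjusted p = 4.1e-05), where the TIGK fall passed and the HaCaT change did not. PLOD2 differed by 1.70 ± 0.16 (adjusted p = 3.8e-08), with opposite changes that both passed. LOXL2 differed by 1.14 ± 0.14 (adjusted p = 2.3e-06) and P4HA1 by 1.03 ± 0.13 (adjusted p = 2.9e-06). P4HA2, PLOD1 and CRTAP differed by 0.68 ± 0.11, 0.58 ± 0.10 and 0.39 ± 0.11 log2. The chains called were COL5A3 (0.87 ± 0.22 log2), COL6A1 (0.50 ± 0.15) and COL8A2 (1.25 ± 0.38). PCOLCE completed the calls with 1.00 ± 0.30 log2. In contrast, differences for COL1A1 (0.27 ± 0.12, adjusted p = 0.13), COL7A1 (-0.24 ± 0.10, adjusted p = 0.14), COL4A1 (-0.22 ± 0.12, adjusted p = 0.29), SERPINH1 (0.05 ± 0.10, adjusted p = 0.79) and PLOD3 (0.07 ± 0.11, adjusted p = 0.74) did not pass. The calls for COL6A1, COL8A2, CRTAP and PCOLCE were lost in 4 to 7 of 19 alternative settings, and the other 8 held in all of those run.

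**Figure D5:**
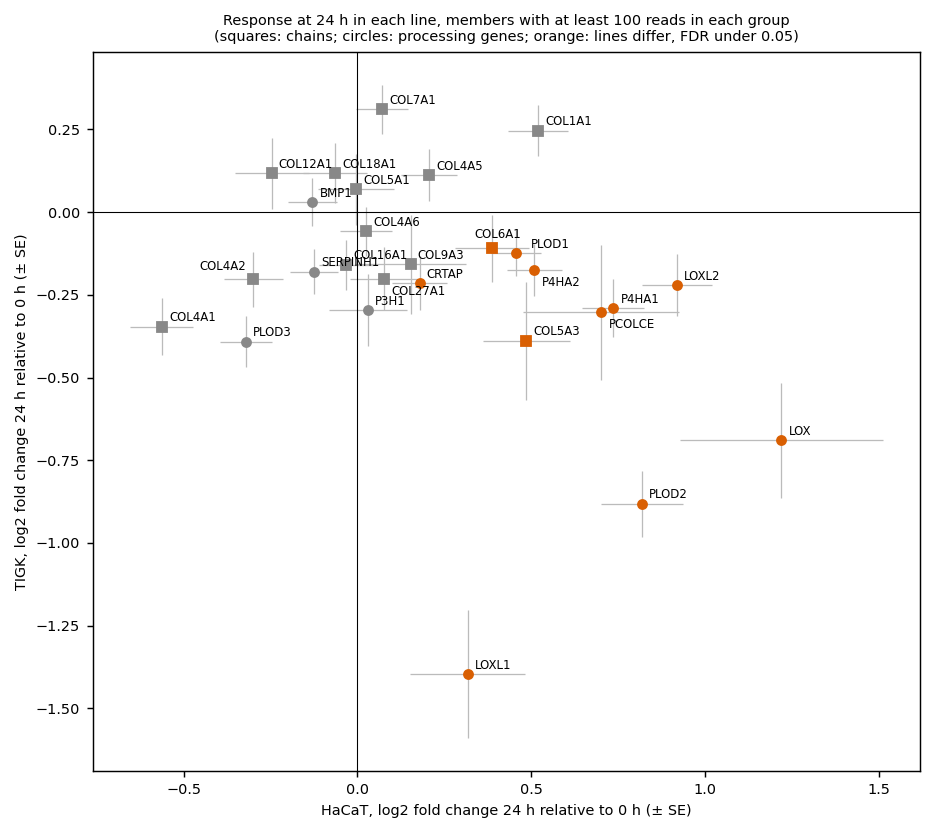
Log2 change from 0 h to 24 h in HaCaT (x axis) and TIGK (y axis), with SE, for the 27 genes with at least 100 reads in each group; orange marks genes whose responses differed between the lines, squares are chains and circles are processing genes. PLOD2, LOX and P4HA1 lie to the right of 0 and below 0, and COL4A1 lies below 0 on both axes.

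The promoters of LOX, PLOD2 and P4HA1 are shown because these genes, known targets of hypoxia-inducible factor, moved in opposite directions in the lines. The core of the hypoxia response element was searched as ACGTG and GCGTG on both strands of the 250 bases before each RefSeq start (GRCh38.p14, first-listed start), and capitals mark each match or its reverse complement. LOX is given for chr5:122078361-122078509 (minus strand, 149 bases, 2 matches), PLOD2 for chr3:146161185-146161434 (minus strand, 250 bases, 3 matches) and P4HA1 for a site of 29 bases at chr10:73096936-73096964 (minus strand). The PLOD2 and P4HA1 stretches lie before the RefSeq starts but inside the spans the deposited table gives the genes, which for PLOD2 is 146069440 to 146163653.
LOX: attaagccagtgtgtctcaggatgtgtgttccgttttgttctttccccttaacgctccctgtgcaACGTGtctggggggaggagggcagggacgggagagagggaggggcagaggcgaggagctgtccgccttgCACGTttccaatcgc
PLOD2: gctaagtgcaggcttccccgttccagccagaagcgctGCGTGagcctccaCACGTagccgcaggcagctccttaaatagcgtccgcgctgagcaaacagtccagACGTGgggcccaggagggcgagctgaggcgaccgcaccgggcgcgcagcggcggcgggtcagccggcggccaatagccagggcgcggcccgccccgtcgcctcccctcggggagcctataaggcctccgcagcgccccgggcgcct
P4HA1 site: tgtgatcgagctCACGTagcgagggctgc
ACGTG occurred before 7 of the 35 genes with a promoter entry (COL5A1, COL4A3, COL15A1, COL12A1, P4HA1, PLOD2 and LOX), against 18.7% of 27305 promoters, and ACGTG or GCGTG before 15 of 35, against 43.1%. COL5A1 and COL12A1, which hold the letters too, were not called in either line at 24 h against 0 h. P4HA2 and COL5A3, called higher in HaCaT at 24 h, are among those that hold neither ACGTG nor GCGTG. A match of letters shows no binding, and whether the letters bear on these changes was not tested. GGGCGG, the GC box, was found before 25 of 35 (42.3% of all promoters), and TGACTCA, an AP-1 site, before 0 of 35 (4.16%). The promoter windows of these genes were rich in GC, with a median of 69.2% against 58% for all promoters.

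Other genes of the collagen pathway were read from lists to place these results. The lists were chosen with earlier results of these data known. Their shares beside the background therefore describe these genes and are no independent support. A list of 14 hypoxia-responsive genes outside the 48, such as VEGFA and ADM, rose in HaCaT at 24 h in 14 of 14 cases (median 1.07 log2), where 15.5% of all genes tested rose. In TIGK 2 of them rose and 8 fell (median -0.43), beside 15.3% and 17% of all genes. For 14 of 14 the response was higher in HaCaT (median 1.35), against 7.07% of all genes. ANGPTL4, a lipase inhibitor induced in hypoxia, differed in response by 2.88 ± 0.24 log2 and VEGFA, the endothelial growth factor, by 1.32 ± 0.12. Before the scratch 2 of the 14 were higher in HaCaT and 9 lower (background 29.3% and 33.3%). Their link to the changes in LOX, PLOD2 and P4HA1 was not tested.

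Of 15 tested genes for other collagen-modifying enzymes and chaperones, 3 at 0 h were higher in HaCaT and 9 lower, where 62.6% of all genes tested were called (29.3% higher and 33.3% lower). P3H3, a prolyl 3-hydroxylase relative in the lysyl hydroxylase complex, had 4, 0 and 2 reads in the HaCaT libraries at 0 h and 563, 743 and 835 in TIGK. COLGALT1, which adds galactose to hydroxylysine, had a log2 ratio of -1.41 ± 0.08. At 24 h against 0 h 1 rose and 3 fell in HaCaT, while 0 rose and 6 fell in TIGK (31.4% and 32.3% of all genes tested were called). The response differed for 3 (13.5% of all genes), among them PXDN, the peroxidase that cross-links type IV collagen, by 1.40 ± 0.17 log2 (adjusted p = 2.7e-06). Of 10 genes for collagen export from the endoplasmic reticulum, 2 were higher and 6 lower in HaCaT at 0 h (background 62.6%), among them CREB3L1, a transcription factor for secretory cargo genes, with 0, 1 and 3 reads in HaCaT and 64, 87 and 127 in TIGK.

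Of 8 collagen receptors 5 were higher and 1 lower in HaCaT at 0 h, led by ITGA2, the integrin alpha2 chain, at 3.09 ± 0.10 log2. Of all genes tested 62.6% were called, 29.3% higher and 33.3% lower. Of 6 tested collagen-degrading proteases 4 were higher and 1 lower (the same background), with MMP1 (collagenase 1) at 3.79 ± 0.16 and MMP13 (collagenase 3) at 3.28 ± 0.20 log2. MMP13 rose in both lines at 24 h (2.85 ± 0.15 log2 in HaCaT and 2.99 ± 0.20 in TIGK). Of 12 collagen-binding matrix proteins 1 was higher and 9 lower in HaCaT at 0 h, against 29.3% and 33.3% of all genes tested, among them SPARC (-3.03 ± 0.07), which binds collagen as it is secreted. At 24 h 6 of the 12 rose and 2 fell in TIGK, and 0 rose and 2 fell in HaCaT, where 32.3% and 31.4% of all genes tested were called. FN1, fibronectin, rose in TIGK (1.24 ± 0.08 log2), and its response was lower in HaCaT (-1.18 ± 0.12). COL17A1, the hemidesmosomal collagen kept apart from the 48, was higher in HaCaT at 0 h (1.00 ± 0.07 log2), and its 24 h response was lower there (-0.32 ± 0.10, adjusted p = 0.027). Of 13 other collagen chains listed, 4 passed the filter on low counts, and 1 was higher and 3 lower in HaCaT at 0 h (background 62.6% in either direction).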

How the data were processed

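RNA from HaCaT and TIGK cultures was sequenced in 18 libraries, 3 for each of 2 lines at 0 h, 6 h and 24 h. The submitters' processing notes name featureCounts 1.5.0-p3, HISAT2 2.0.5 and StringTie 1.3.3b and, as the build, hg38; the role of each tool, the annotation release, the counting settings and strand are not given in the sources used here. Counts are whole reads for each gene, as deposited by the authors. The authors' deposited FPKM values are that count over gene length, divided by 1 constant for each library (largest relative deviation 5.2e-12). File columns carry letters A to C that the labels do not tie to their replicate numbers, so libraries are named by letter. Deviations from the group mean correlated between same-letter TIGK libraries of 0 h and 6 h (0.20 to 0.58), and not between those of HaCaT at these times (-0.08 to -0.01) or any with 24 h (-0.07 to 0.08), so the letter was taken as a pair for TIGK 0 h and 6 h only, from the data and not the labels. The highest of these correlations, 0.58, was that of letter C, whose TIGK libraries stood apart in genes with a read and mitochondrial share. Deviations from a mean of 3 are tied to each other, so the values for A and B are not independent of that for C. The authors' comparison tables were not used here.

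The tests used edgeR 4.0.16 under R 4.3.3 (filterByExpr, TMM, quasi-likelihood, 6 group means over 18 libraries, 12 residual degrees of freedom, prior count 0.125), with Benjamini-Hochberg adjustment over 17409 genes and a threshold of 0.05. Adjusted p-values are two-sided and come from edgeR except where stated. The SE is the absolute log2 fold change divided by the square root of F, an approximation. Where a group had no read, the fold is a bound with 3 reads per library. Alternatives were DESeq2 1.42.0, limma 3.58.1 on log2(FPKM + 0.1), median-of-ratios scaling, no filter, only the groups compared, a block on the letter, leaving out each library in turn, and leaving out TIGK 0 h C and 6 h C together. Scripts were tested on simulated data.

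Values in every library were given for genes with a mean of at least 20 CPM in 1 group that were called with at least 1 log2 unit between the lines or 0.58 within 1 line, and for COL1A1, COL1A2, COL3A1, COL4A1, COL4A2, COL7A1, LOX, PLOD2 and P4HA1, 21 genes in all. PLOD1, outside that rule, was added to the enzyme plot after its values were seen. Of the pathway lists, up to 4 genes with the lowest adjusted p were eligible. Members and lists were chosen with earlier results of these data known. Promoter sequences are from RefSeq, build GRCh38.p14, where 35 of the 48 genes matched.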

Additional observations from a re-analysis of the deposited data

Results flagged for a closer look

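The change from 0 h to 24 h differed between HaCaT and TIGK for 12 genes by the interaction term of edgeR's model, with each difference given as the HaCaT change minus the TIGK change in log2 units. Among cross-linking enzymes it was 1.91 for LOX, 1.71 for LOXL1 and 1.14 for LOXL2. Among hydroxylases it was 1.70 for PLOD2, 1.03 for P4HA1, 0.68 for P4HA2 and 0.58 for PLOD1. CRTAP, of the prolyl 3-hydroxylase complex, had 0.39, and PCOLCE, the enhancer of the C-proteinase, had 1.00. The chains were COL8A2 with 1.25, COL5A3 with 0.87 and COL6A1 with 0.50. The COL8A2 value rests on 51 HaCaT reads at 0 h and 81 at 24 h. Calls for COL6A1, COL8A2, CRTAP and PCOLCE were lost in 4 to 7 of 19 alternative settings. All 12 differences were in the same direction, with the HaCaT change above the TIGK change.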

How the results depend on the processing

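No called value changed sign under any alternative run, and most counts of called genes stayed within 1.5 times the reported count. The exceptions follow. For HaCaT at 6 h against 0 h a fit of those groups alone gave 1 call (0 as reported). For TIGK at 6 h against 0 h limma and the fit of those groups alone gave 0 (1 as reported), and leaving out 1 library gave 0 to 1. For TIGK at 24 h against 0 h leaving out 1 library gave 8 to 15 calls (15 with all libraries), with 8 without TIGK 24 h B and 9 without TIGK 0 h B. For the line difference in the 6 h response DESeq2 gave 1, no filter on low counts gave 1, and leaving out 1 library gave 0 to 1 (0 as reported), the 1 being without HaCaT 0 h B. The letters were used as pairs for TIGK at 6 h against 0 h only. With a replicate block the counts for the lines at 0 h, 6 h and 24 h were 35, 35 and 30; those for 6 h against 0 h were 0 in HaCaT and 1 in TIGK; those for 24 h against 0 h were 14 in HaCaT and 16 in TIGK; and that for the line difference in the 24 h response was 12. Depth limits COL1A2, COL3A1 and COL6A3 in both lines and FKBP10, COL6A2, COL8A1, P3H3 and CREB3L1 in HaCaT, whose ratios rest on a few reads.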
